A study of Mus musculus with 24 samples.

Results

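Whole lysates of wild-type mice were compared between the dorsal striatum (DS) and the nucleus accumbens (Acb) across all genes, from raw read counts. The comparison used 6 of the 24 libraries of the series, namely the 3 labelled Acb wild-type total and the 3 labelled DS wild-type total. The series was built around rpS6P-/- knockin mice, in which the phosphorylation sites of ribosomal protein S6 carry alanine, and it also holds whole lysates of these mice and RNA from heavy polysomal fractions of both genotypes. The mice were wild-type littermates of the knockins on a mixed C57Bl/6/Sv129/ICR background, of both sexes by the methods and with no age given in the sources used here, and the labels name no transgene or treatment. Each library came from pooled mice, and the lysate RNA is cytosolic RNA set aside before the polysomes were separated. By the methods the Acb was cut from a more anterior slice than the DS, so that region and anterior to posterior level cannot be told apart.

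Both regions are built mainly from medium-sized spiny neurons (MSNs), GABAergic projection cells that carry either the D1 or the D2 dopamine receptor, with a minority of interneurons and with glia. The DS receives much of its input from sensory and motor cortex and is best known for action selection and habit. The Acb receives limbic input and is best known for motivation and reward, and it borders the septum, the ventral pallidum and the bed nucleus. Its MSNs are known for a rich supply of neuropeptides.

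Among 15557 genes with at least 15 reads over the 6 libraries, 1975 (12.7%) differed between the regions with an adjusted p under 0.05 in edgeR's quasi-likelihood test with Benjamini-Hochberg adjustment, which is what "called" stands for throughout. Of these, 1018 genes (6.54%) were higher in the Acb and 957 (6.15%) were higher in the DS. Fold changes are given as Acb over DS on the log2 scale, so that a negative value is a higher level in the DS, and levels are given as CPM, the reads of a gene scaled to the size of its library, for replicates 1, 2 and 3 of a region. The median change of the called genes was 0.81 in the Acb direction and -0.70 in the DS direction, against 0.01 over all genes tested. A change of at least 1 on the log2 scale was found for 362 genes higher in the Acb and 272 higher in the DS, and one of at least 2 for 114 and 87. Every library of a region lay above every library of the other for 3687 (31.9%) of the 11540 genes that averaged 50 reads or more.

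**Figure D1:**
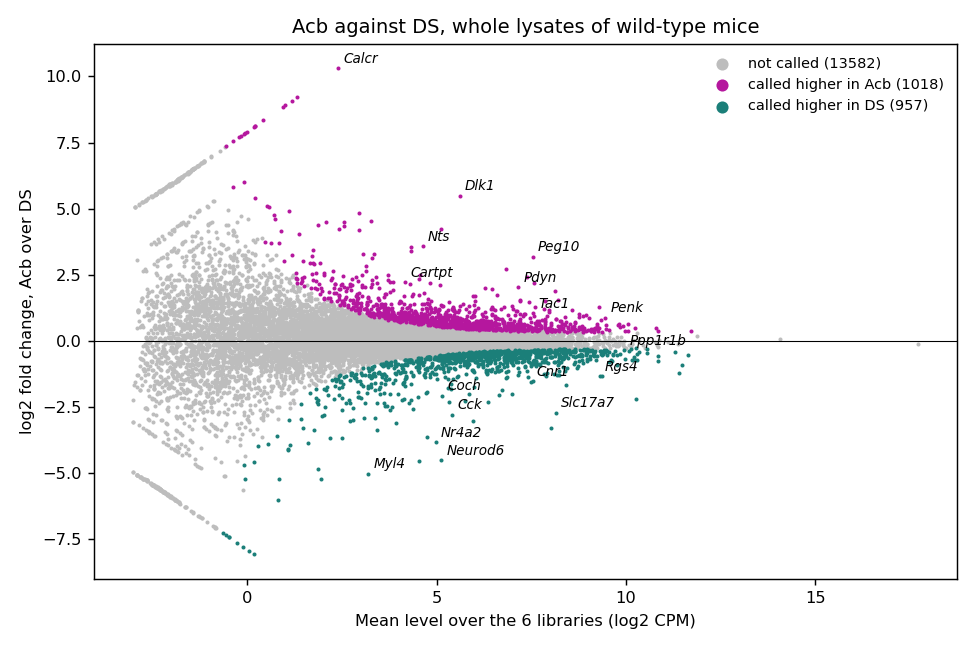
Each point is 1 gene, with its mean level over the 6 wild-type whole-lysate libraries on the horizontal axis (log2 CPM) and its log2 fold change of Acb over DS on the vertical axis. Genes called higher in the Acb (1018) lie above the line and genes called higher in the DS (957) below it, and the slanted rows of points at low levels are genes with few or no reads in a region.

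The Acb libraries held 9280589 to 18177175 assigned reads and the DS libraries 13762168 to 20259509. A non-coding RNA of dendrites, Bc1, took 18.1 to 25.6% of the reads in the Acb and 19.9 to 24.8% in the DS, and its level was not called different (log2 fold change -0.13, adjusted p 0.438 in edgeR), although it was called without Acb replicate 3 (-0.36, adjusted p 1.50e-05). Libraries of the same region correlated with Pearson's r of 0.949 to 0.974 across genes and libraries of different regions with 0.910 to 0.949, and the first principal component, with 50.7% of the variance, separated the regions. P-values measure the spread between these pools of mice. Leaving out a library lowered the number of calls to between 1327 and 1728, and without Acb replicate 2 the genes higher in the Acb fell from 1018 to 664.

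Markers of cells outside the MSN population differed between the dissections, and these values stand beside every list that follows. Markers of cortical excitatory neurons summed to 487 to 603 CPM in the Acb and to 1480 to 1715 CPM in the DS, with 12 of 17 members higher in the DS and 1 higher in the Acb. The members Slc17a7, Neurod2 and Neurod6 had reads in every library, whereas Emx1 had 0 reads in Acb replicates 2 and 3. Slc17a7, the vesicular glutamate transporter of cortical projection neurons, stood at 112, 58.5 and 51.6 CPM in the Acb and 431, 469 and 585 CPM in the DS, a level 6.65-fold higher in the DS, and the first Acb library was the highest of its region. Markers of septal and pallidal neurons went the other way, from 172 to 181 CPM in the Acb and from 19.8 to 31.8 CPM in the DS, with 6 of 9 higher in the Acb. Dlk1, which is also a ventral striatum marker, held 91.1 to 103 CPM of the Acb sums, and without it, a choice made after seeing the data, the other 8 markers summed to 78.8 to 84.9 CPM in the Acb and 17.9 to 29.6 CPM in the DS, with 5 higher in the Acb. Summed markers also lay higher in every Acb library than in any DS library for astrocytes (2598 to 3090 against 1770 to 1913 CPM), microglia (303 to 398 against 167 to 192 CPM), oligodendrocytes (4062 to 4634 against 3062 to 3734 CPM) and choroid plexus (145 to 187 against 99.8 to 114 CPM). Most of the choroid plexus sum came from members other than Ttr, which held 12.8, 4.85 and 3.15 CPM in the Acb. Of its 11 tested members 3 were called. Endothelial markers overlapped (16.2 to 33.3 against 12.2 to 22.8 CPM, 0 of 12 called), and 6 haemoglobin genes were listed at 0 in all 6 libraries. The remaining blood marker had reads in both regions (1.14 to 6.42 against 2.35 to 5.30 CPM) and was not called. The part of these cells in the differences between regions was not tested, and in bulk lysates fewer cells of a type and less RNA per cell cannot be told apart.

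**Figure D2:**
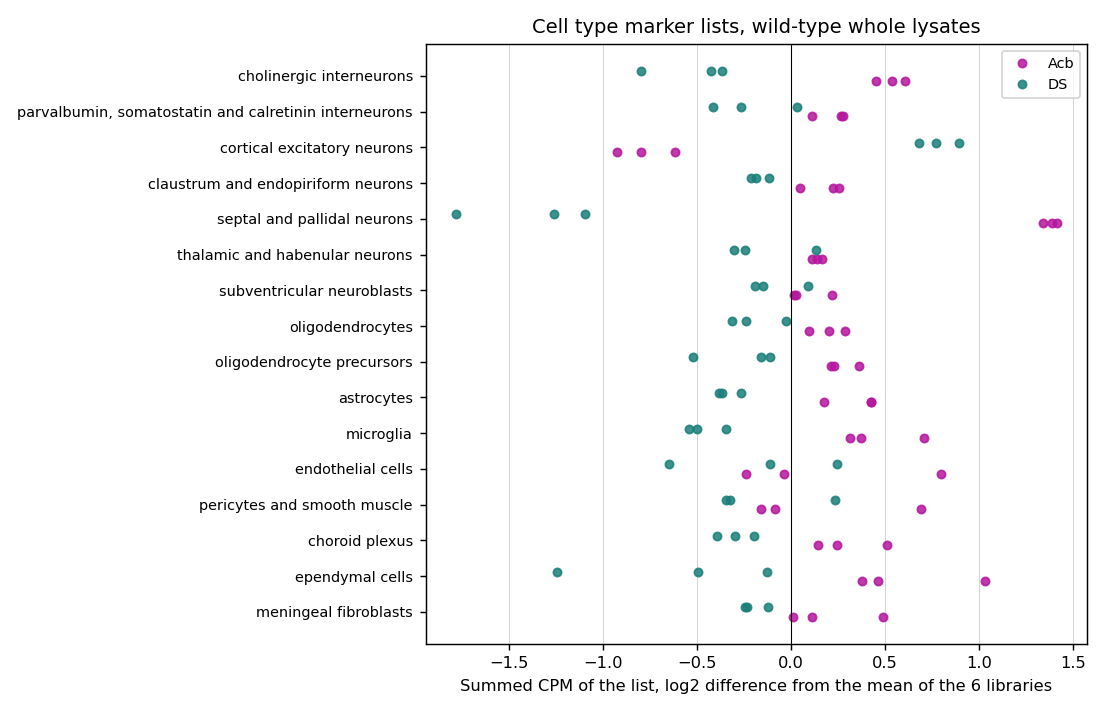
Each row is a list of marker genes and each point 1 library, placed by the summed CPM of the list as a log2 difference from the mean of the 6 wild-type libraries. Cortical excitatory markers lie higher in all 3 DS libraries. Septal and pallidal, astrocyte, microglial and oligodendrocyte markers, among other lists, lie higher in all 3 Acb libraries.

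The genes with the largest differences, chosen as the 12 in each direction with the largest change among called genes that averaged 50 reads or more and whose regions stayed apart, are a description of this comparison. Calcr, the calcitonin receptor, whose gene lies on chromosome 6 from 3685678 to 3764713 in GRCm38, had 159, 184 and 85 reads in the Acb and 0 in each DS library. Counted against a floor of 3 reads in each DS library, its 8.20, 13.9 and 9.58 CPM in the Acb were at least 55.3-fold higher. Dlk1, a secreted and membrane-bound Notch ligand relative (chromosome 12, 109452485 to 109463336), stood at 91.1, 103 and 93.2 CPM in the Acb and at 2.24, 1.91 and 2.26 CPM in the DS, which is a 44.6-fold difference (log2 fold change 5.48, SE 0.21, adjusted p 2.61e-23, edgeR). The replicates of a region lay close together for Dlk1, whereas the Acb replicates of Calcr spread more widely. Nts, the precursor of neurotensin, a peptide that modulates dopamine signalling, was at 38.3, 60.1 and 38.8 CPM against 3.68, 3.05 and 4.76 CPM. Baiap3, which serves exocytosis of dense-core vesicles, was at 64.1, 52.0 and 82.3 CPM against 5.72, 3.18 and 1.32 CPM. The others were Igsf1 (13.8, 15.2 and 15.7 against 1.14, 0.254 and 0 CPM), the diacylglycerol kinase gene Dgkk (16.2, 20.2 and 19.2 against 1.39, 0 and 0.936 CPM), the insulin receptor substrate gene Irs4, the glypican gene Gpc3, the GABA-A receptor subunit gene Gabrq, Arhgap36, AW551984 and Ttr. Ttr, a transport protein made in large amounts by choroid plexus, stood at 12.8, 4.85 and 3.15 CPM against 0.846, 0.0636 and 0 CPM, and it was not called without Acb replicate 1 (adjusted p 0.0611, edgeR).

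The corresponding genes in the DS included transcription factors known from cortical neurons. Neurod6, a factor of cortical projection neurons (chromosome 6, 55677818 to 55681263) stood at 3.66, 2.58 and 2.14 CPM against 58.3, 66.0 and 75.7 CPM, 23.0-fold higher. Its relative Neurod2 was at 8.25, 1.29 and 1.35 CPM against 41.3, 55.8 and 52.8 CPM. For Neurod6 and Neurod2 the first Acb library was the highest of its region, as for Slc17a7. Nr4a2, a nuclear receptor known from dopamine neurons, deep cortex and claustrum, was at 5.47, 2.80 and 3.83 CPM against 52.1, 51.8 and 72.9 CPM. The most abundant of the set was 3110035E14Rik, with 58.4, 44.5 and 37.8 CPM against 445, 475 and 491 CPM. Others of the set, Dkkl1, the atrial myosin light chain gene Myl4, Wnt9a, 9130024F11Rik, Bmp3, Cpne9 and Hkdc1, lay below 3 CPM in every Acb library. Among them Hkdc1, a hexokinase domain gene, was not called by DESeq2 (adjusted p 0.0952), and Bmp3 was not called without DS replicate 1 (adjusted p 0.0636, edgeR).

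**Figure D3:**
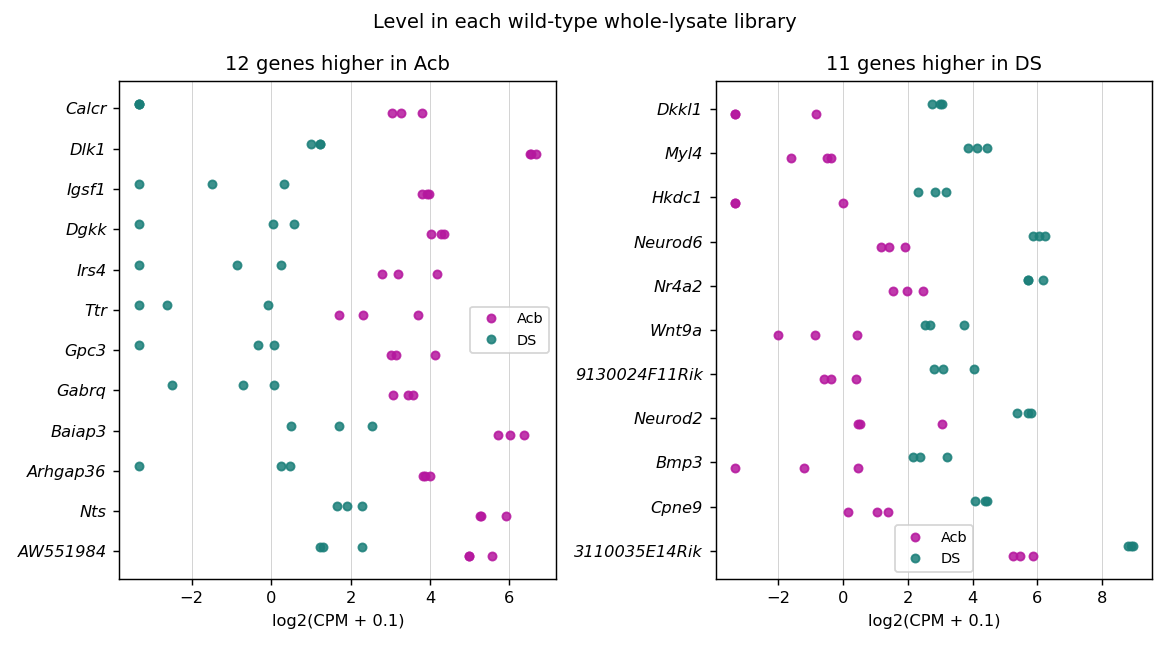
Levels of the 12 genes with the largest difference towards the Acb and 11 of those towards the DS, as log2(CPM + 0.1), with 1 point per library. The regions do not overlap for these genes, which the rule for naming them required, and points at the left edge are libraries with 0 reads.

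Genes that define MSNs were strongly expressed in both regions but leaned towards the DS. Of 29 such genes 15 were higher in the DS, 4 were higher in the Acb and 10 were not called, with a median change of -0.38, and their sum was 12080 to 13140 CPM in the Acb and 13880 to 16360 CPM in the DS. Ppp1r1b, which encodes DARPP-32, the dopamine-regulated phosphatase inhibitor of MSNs, was at 844, 854 and 917 CPM in the Acb and 1160, 1014 and 1189 CPM in the DS, so that all DS libraries were higher (log2 fold change -0.36, SE 0.10, adjusted p 0.00884 in edgeR, and 0.0623 without Acb replicate 2). Larger differences were measured for Arpp19 (-0.79), the small GTPase gene Rasd2 (-0.85), the retinoid receptor gene Rxrg (-0.99) and the striatal phosphodiesterase gene Pde10a (-0.79). Pde10a stood at 628, 553 and 467 CPM in the Acb and 1088, 865 and 905 CPM in the DS. Strip2, by contrast, was higher in the Acb, at 182, 180 and 181 CPM against 98.6, 67.3 and 53.2 CPM (log2 fold change 1.31, SE 0.15, adjusted p 9.71e-09, edgeR). The transcription factor genes Foxp1 (-0.59) and Bcl11b (-0.43) were higher in the DS, whereas Foxp2 (0.58) was higher in the Acb, a call lost without Acb replicate 2 or DS replicate 2.

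The dopamine receptors themselves differed little. Drd1a, the receptor of D1 MSNs, was at 233, 216 and 200 CPM in the Acb and 183, 191 and 174 CPM in the DS, and although every Acb library was higher it was not called (log2 fold change 0.24, SE 0.12, adjusted p 0.200, edgeR). Drd2, the receptor of D2 MSNs, was at 89.7, 61.1 and 62.3 CPM against 98.7, 86.5 and 103 CPM with overlapping libraries (log2 fold change -0.43, SE 0.15, adjusted p 0.0466, edgeR). The Drd2 call was lost with the filterByExpr filter (0.0596), with DESeq2 (0.0586) and without Acb replicate 2, Acb replicate 3, DS replicate 1 or DS replicate 3 (0.145 to 0.263). Of 11 D1 MSN genes 4 were higher in the Acb and 1, Stmn2 (-0.54), in the DS. The 4 were Tac1, Pdyn, Tpbg (1.0) and Isl1 (0.91, lost without DS replicate 3). Of 9 D2 MSN genes Penk was higher in the Acb while Drd2 and Plxdc1 were higher in the DS, and neither of these DS calls held with the filterByExpr filter, with DESeq2 or without Acb replicate 3, DS replicate 1 or DS replicate 3. The adenosine receptor gene Adora2a was not called (-0.30, adjusted p 0.119, edgeR).

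Genes known for ventral striatum were higher in the Acb in 11 of 15 cases, with a median change of 2.22. Their sums were 1105 to 1251 CPM in the Acb against 265 to 308 CPM in the DS. The list was chosen with earlier results of these data known, so that its count is a description. Peg10, a retrotransposon-derived imprinted gene, was at 320, 347 and 338 CPM in the Acb and 38.2, 32.4 and 40.2 CPM in the DS. Wfs1, a protein of the endoplasmic reticulum, was at 242, 304 and 297 CPM against 42.7, 53.4 and 61.1 CPM. Crym, a thyroid hormone-binding protein, was at 211, 228 and 223 CPM against 79.8, 73.3 and 73.2 CPM. The exception was Nptx2, an activity-regulated pentraxin, which was higher in the DS (-1.12, SE 0.21, adjusted p 0.000109, edgeR), and Drd3, the D3 receptor of the Acb, could not be judged at 22, 25 and 1 reads against 6, 18 and 0 reads. Genes known for dorsal striatum were more divided, with 6 of 15 higher in the DS, 4 higher in the Acb and a median of -0.23. Coch, an extracellular matrix protein, was at 16.7, 14.9 and 8.11 CPM in the Acb and 50.8, 61.6 and 59.7 CPM in the DS, and the Wnt agonist gene Rspo2 at 2.58, 1.06 and 0.789 CPM against 9.40, 8.07 and 20.1 CPM. The members higher in the Acb were the collagen gene Col6a1 (1.68), the phosphodiesterase gene Pde1c (1.07), the monoamine transporter gene Slc29a4 (2.15) and Id4 (0.60).

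Neuropeptide precursors differed mainly towards the Acb. Of 36 precursors tested 13 were higher in the Acb, 2 were higher in the DS and 21 were not called, with a median change of 0.98, and their sum was 2256 to 2845 CPM in the Acb and 1431 to 1519 CPM in the DS. Pdyn, the precursor of the dynorphins of D1 MSNs, stood at 210, 267 and 204 CPM in the Acb and at 62.8, 48.4 and 56.9 CPM in the DS, 4.05-fold higher (log2 fold change 2.02, SE 0.14, adjusted p 4.67e-15, edgeR). Tac1, the precursor of substance P, was at 222, 277 and 252 CPM against 129, 118 and 118 CPM. Penk, the enkephalin precursor of D2 MSNs, was at 743, 984 and 993 CPM against 514, 502 and 478 CPM. No library of a region overlapped with the other region for these 3 genes of MSNs. Scg2, a granin of dense-core vesicles, was at 380, 544 and 393 CPM against 160, 130 and 162 CPM. Cartpt, the precursor of the CART peptide, was at 25.2, 33.6 and 29.4 CPM against 4.48, 8.90 and 5.54 CPM, and Sst, the somatostatin precursor of an interneuron class, was at 133, 153 and 157 CPM against 82.7, 137 and 82.8 CPM with overlapping libraries (log2 fold change 0.55, SE 0.15, adjusted p 0.00839, edgeR). The Sst call was lost without Acb replicate 2, DS replicate 1 or DS replicate 3 and when the trend on transcript length was removed (0.0505). Cck, a peptide of cortical and other neurons, went the other way at 8.20, 14.4 and 9.24 CPM against 65.5, 91.9 and 64.9 CPM, 6.99-fold higher in the DS, as did Vip at 5.37, 5.0 and 2.37 CPM against 9.35, 16.8 and 16.2 CPM. Gal and Oxt, chosen after their values were seen, showed uneven Acb replicates, Gal with 36, 36 and 80 reads against 0 in every DS library and Oxt with 39, 91 and 139 reads against 17, 2 and 0.

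Promoters of peptide genes are known for sites of CREB and AP-1, factors that act downstream of cyclic AMP and of neuronal activity, and 4 of them are printed here because they belong to the precursors described above and hold such letters. The RefSeq windows of GRCm38.p6 run from 250 bases before to 50 after a start and were found for 12237 of the genes tested and 29 of the 36 precursors. The CRE letters TGACGTCA, which read the same on both strands, occurred in 4 of these 29 windows (13.8%), against 3.37% of all windows, 2.77% of those of genes called higher in the Acb and 3.12% of those of genes called higher in the DS. The AP-1 letters TGANTCA, with any base at N, also read the same on both strands and are never part of the CRE letters. They occurred for 6 of the 29 precursors (20.7%) against 6.42% of all genes with a window. This search was looser than the AP-1 site itself, since the matches of Avp and Igf1 read TGAATCA and that of Nts TGAGTCA. The CRE genes were Cartpt, Scg2 and Sst, all higher in the Acb, and Chgb, which was not called. Of the AP-1 genes Nts was the one that was called. The TATA box letters TATAAA, and the letters CAGATG of an E-box read by NeuroD factors, were also searched on both strands. They occurred for 9.30% and 14.4% of all genes with a window and 27.6% and 24.1% of the precursors. The shares were 11.1% and 14.9% of genes higher in the Acb, and 9.35% and 15.9% of those higher in the DS. A match is a description of letters, not of binding. The 250 bases before the start are shown 5′ to 3′ on the strand of the gene, with the match in capitals, for Cartpt (chr13:99900684-99900933, minus strand, match starting at -112), Scg2 (chr1:79440027-79440276, minus strand, -68), Sst (chr16:23890845-23891094, minus strand, -48) and Nts (chr10:102490419-102490668, minus strand, -207).
Cartpt: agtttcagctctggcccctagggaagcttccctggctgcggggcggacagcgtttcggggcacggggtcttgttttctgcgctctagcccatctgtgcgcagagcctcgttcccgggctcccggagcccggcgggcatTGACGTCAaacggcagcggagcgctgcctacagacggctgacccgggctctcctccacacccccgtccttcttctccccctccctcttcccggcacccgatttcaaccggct
Scg2: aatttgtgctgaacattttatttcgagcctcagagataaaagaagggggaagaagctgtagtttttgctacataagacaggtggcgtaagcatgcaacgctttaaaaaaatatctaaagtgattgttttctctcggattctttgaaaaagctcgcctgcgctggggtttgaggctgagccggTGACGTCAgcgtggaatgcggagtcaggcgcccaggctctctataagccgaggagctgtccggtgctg
Sst: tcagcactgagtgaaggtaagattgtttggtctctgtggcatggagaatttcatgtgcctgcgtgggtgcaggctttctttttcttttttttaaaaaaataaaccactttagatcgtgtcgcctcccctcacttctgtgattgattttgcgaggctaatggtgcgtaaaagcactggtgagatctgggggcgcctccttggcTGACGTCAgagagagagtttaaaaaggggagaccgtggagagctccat
Nts: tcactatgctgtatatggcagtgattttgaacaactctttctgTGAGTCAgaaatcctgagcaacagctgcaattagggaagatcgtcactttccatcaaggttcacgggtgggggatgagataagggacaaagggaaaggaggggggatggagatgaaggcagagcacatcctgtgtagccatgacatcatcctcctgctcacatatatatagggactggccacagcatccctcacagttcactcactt

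Receptors for peptides leaned towards the Acb as well. Of 46 tested 12 were higher in the Acb and 4 in the DS, with a median change of 0.92. Beside Calcr, the receptor of the peptide PACAP, Adcyap1r1, stood at 149, 132 and 157 CPM in the Acb against 59.1, 66.8 and 65.8 CPM in the DS. Npy2r, a receptor of neuropeptide Y, was at 16.0, 17.8 and 19.5 CPM against 3.18, 1.65 and 1.17 CPM, and Gpr83 at 49.3, 49.0 and 41.2 CPM against 22.2, 20.9 and 19.3 CPM. The DS members were the somatostatin receptor genes Sstr3 (-1.65) and Sstr2 (-1.62), Vipr1 (-1.03) and Cckbr (-0.90), the last lost without Acb replicate 1, Acb replicate 3 or DS replicate 2. In the lysates, therefore, Cck and Vip were higher on the same side as their receptor genes Cckbr and Vipr1, whereas Sst and the genes Sstr2 and Sstr3 lay on opposite sides. Only receptor genes that were called enter this comparison. In knockin lysates Vipr1 (adjusted p 0.287) and Sstr2 (0.111) were not called by edgeR.

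Among 29 receptors for dopamine, serotonin, noradrenaline and histamine 4 were higher in the Acb and 1, Drd2, in the DS. The Drd2 call was lost in several alternatives (above). The called share of 17.2% was little above the 12.7% of all genes tested. Htr2c, a Gq-coupled serotonin receptor, was at 118, 115 and 138 CPM in the Acb and 37.3, 28.0 and 27.8 CPM in the DS, 3.98-fold higher (log2 fold change 1.99, SE 0.15, adjusted p 1.34e-13, edgeR). Htr4 (2.39) and Htr7 (1.68), both receptors that raise cyclic AMP, were lower in abundance, with Htr4 at 6.34, 9.54 and 8.11 CPM against 0.796, 2.54 and 1.25 CPM. Adra2c (0.67) was lost with DESeq2 (0.0568), in a fit of all 12 lysates, with Bc1 removed and without Acb replicate 2, Acb replicate 3, DS replicate 1 or DS replicate 2. Of 10 genes for the synthesis, transport and breakdown of dopamine 3 were higher in the Acb, and without DS replicate 2 this count was 1. Slc18a2, the vesicular monoamine transporter, stood at 2.06, 7.95 and 1.47 CPM in the Acb with 0 reads in every DS library (at least 20-fold higher), and the dopamine neurons that make it lie outside both regions.

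The endocannabinoid system pointed to the DS, with 4 of 11 genes higher there and 0 higher in the Acb. Cnr1, the CB1 receptor that restrains transmitter release (chromosome 4, 33923171 to 33948831), was at 98.2, 98.9 and 79.1 CPM in the Acb and 293, 248 and 272 CPM in the DS, 2.94-fold higher (log2 fold change -1.55, SE 0.13, adjusted p 9.01e-13, edgeR). The regions did not overlap. Faah, which breaks down anandamide, was at 14.7, 6.36 and 8.45 CPM against 24.9, 30.3 and 24.3 CPM. Dagla, which makes 2-AG (-0.74), and Cnrip1, a CB1-interacting protein (-0.57), were not called without Acb replicate 2, where the count was 2, and Cnrip1 was also lost without Acb replicate 1 or DS replicate 2. Among 16 acetylcholine receptor genes Chrnb2 was higher in the Acb (50.1, 59.0 and 54.7 against 32.7, 30.4 and 31.6 CPM) and the muscarinic gene Chrm3 in the DS (9.54, 7.5 and 4.62 against 12.9, 20.3 and 19.1 CPM). This called share, 12.5%, was close to the 12.7% of all genes tested. There were 2 or 3 Acb calls by DESeq2 (2) and without Acb replicate 1 (2), DS replicate 2 (3) or DS replicate 3 (2), and 2 DS calls without Acb replicate 2.

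Glutamate and GABA receptor genes were higher in the Acb in 9 of 42 cases and higher in the DS in 2. Gabrg1, a GABA-A receptor subunit, was at 52.6, 56.0 and 57.9 CPM in the Acb and 11, 11.9 and 15.4 CPM in the DS, 4.35-fold higher. Gabbr1, a subunit of the GABA-B receptor, was at 658, 731 and 642 CPM against 454, 473 and 541 CPM (log2 fold change 0.47, SE 0.11, adjusted p 0.00140, edgeR), and its partner subunit Gabbr2 changed sides at 33.6, 33.8 and 22.3 CPM against 46.8, 64.4 and 36.4 CPM (log2 fold change -0.71, SE 0.20, adjusted p 0.0106, edgeR), with the call lost without Acb replicate 3 or DS replicate 2. The NMDA receptor gene Grin2d was at 6.34, 7.27 and 4.28 CPM against 0.497, 0.954 and 0.468 CPM. The DS call of Grm2 (-1.75) was lost with the filterByExpr filter, with DESeq2 and without Acb replicate 1, Acb replicate 2, DS replicate 1 or DS replicate 2.

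Channel genes were divided. Of 82 potassium channel genes 7 were higher in the Acb and 13 in the DS, with a median of -0.11. The called share was 24.4%, against 12.7% of all genes tested (6.54% higher in the Acb and 6.15% higher in the DS). On the Acb side the count was thus close to the share of all genes. The Acb side held Kcnj10 (135, 125 and 106 against 67.1, 65.5 and 75.6 CPM) and Kcnj16 (1.35), inward rectifiers known from astrocytes, besides Kcna5 (34.2, 38.7 and 32.7 against 15.1, 10.6 and 15.3 CPM). The DS side held the G protein-gated subunit genes Kcnj3 (7.02, 4.47 and 3.15 against 16.9, 18.4 and 17.7 CPM) and Kcnj9 (33.0, 34.0 and 29.9 against 56.5, 65.0 and 52.5 CPM) and the beta subunit genes Kcnab1 (-0.71) and Kcnab2 (-0.53). Without Acb replicate 1 or DS replicate 1 the Acb count was 4, and without Acb replicate 2 or DS replicate 2 the DS count was 8. Of 35 sodium and calcium channel genes 6 were higher in the Acb and 8 in the DS. Cacna2d2, an auxiliary calcium channel subunit, was at 68.7, 87.4 and 74.6 CPM in the Acb against 36.0, 39.3 and 26.1 CPM in the DS, while the beta subunit gene Cacnb3 was at 91.5, 80.7 and 96.6 CPM against 157, 160 and 189 CPM. Scn4b, a sodium channel beta subunit abundant in MSNs, was at 725, 615 and 652 CPM against 905, 940 and 992 CPM. The Acb count was 3 without Acb replicate 1 and 2 without DS replicate 1, and the DS count was 5 without Acb replicate 3 or DS replicate 3.

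Proteins of synaptic vesicles and of transmitter loading differed in both directions. Of 43 genes 15 were higher in the DS and 8 in the Acb, and their sum was 11480 to 12010 CPM in the Acb and 15030 to 15730 CPM in the DS. The GABA-synthesising enzyme gene Gad2 was at 675, 636 and 658 CPM in the Acb against 425, 279 and 301 CPM in the DS, and the vesicular GABA transporter gene Slc32a1 at 186, 212 and 200 CPM against 94.5, 86.5 and 113 CPM. Unc13c, a priming factor, was at 135, 130 and 113 CPM against 61.9, 45.8 and 49.0 CPM, and Slc17a6, a glutamate transporter of subcortical neurons, was at 17.9, 18.7 and 16.9 CPM against 8.85, 7.31 and 8.42 CPM. Beside Slc17a7 the DS side held Stx1a, a syntaxin of the release machinery, at 44.6, 31.4 and 40.8 CPM against 144, 187 and 160 CPM, 4.20-fold higher. Snap25, its partner, was at 1959, 1959 and 1996 CPM against 4028, 3511 and 3812 CPM (log2 fold change -0.94, SE 0.09, adjusted p 4.59e-11, edgeR), and Sv2b at 156, 122 and 121 CPM against 312, 351 and 301 CPM. The summed cortical excitatory markers, which express these release genes too, moved in the same direction (above), and their part was not tested. The Acb count was 5 without Acb replicate 1 or DS replicate 2 and 4 without Acb replicate 2.

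Genes of G protein and cyclic nucleotide signalling were higher in the DS in 8 of 45 and 8 of 43 cases and higher in the Acb in 4 and 3. The called shares were 26.7% and 25.6%, against 12.7% of all genes tested, of which 6.54% were higher in the Acb. Rgs4, which speeds the turning off of Gi and Gq signals, was at 344, 390 and 335 CPM in the Acb and 989, 918 and 829 CPM in the DS, 2.56-fold higher (log2 fold change -1.36, SE 0.11, adjusted p 3.96e-13, edgeR). Adcy1, a calcium-stimulated adenylyl cyclase, was at 129, 82.9 and 74.4 CPM against 229, 312 and 299 CPM. The G protein genes Gnao1 (-0.58) and Gng2 (-0.66) were higher in the DS and Gnai2 (0.63) and Rgs10 (0.70), both also expressed in microglia, in the Acb. Adcy5, the main cyclase of MSNs, was not called, with 479, 391 and 328 CPM against 350, 379 and 355 CPM. Neither was the G protein gamma subunit gene Gng7 (-0.06, adjusted p 0.829, edgeR). The count of cyclic nucleotide genes higher in the DS was 5 without Acb replicate 3 and 4 without DS replicate 1, and that of G protein genes higher in the Acb was 2 without Acb replicate 2, Acb replicate 3 or DS replicate 3.

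**Figure D4:**
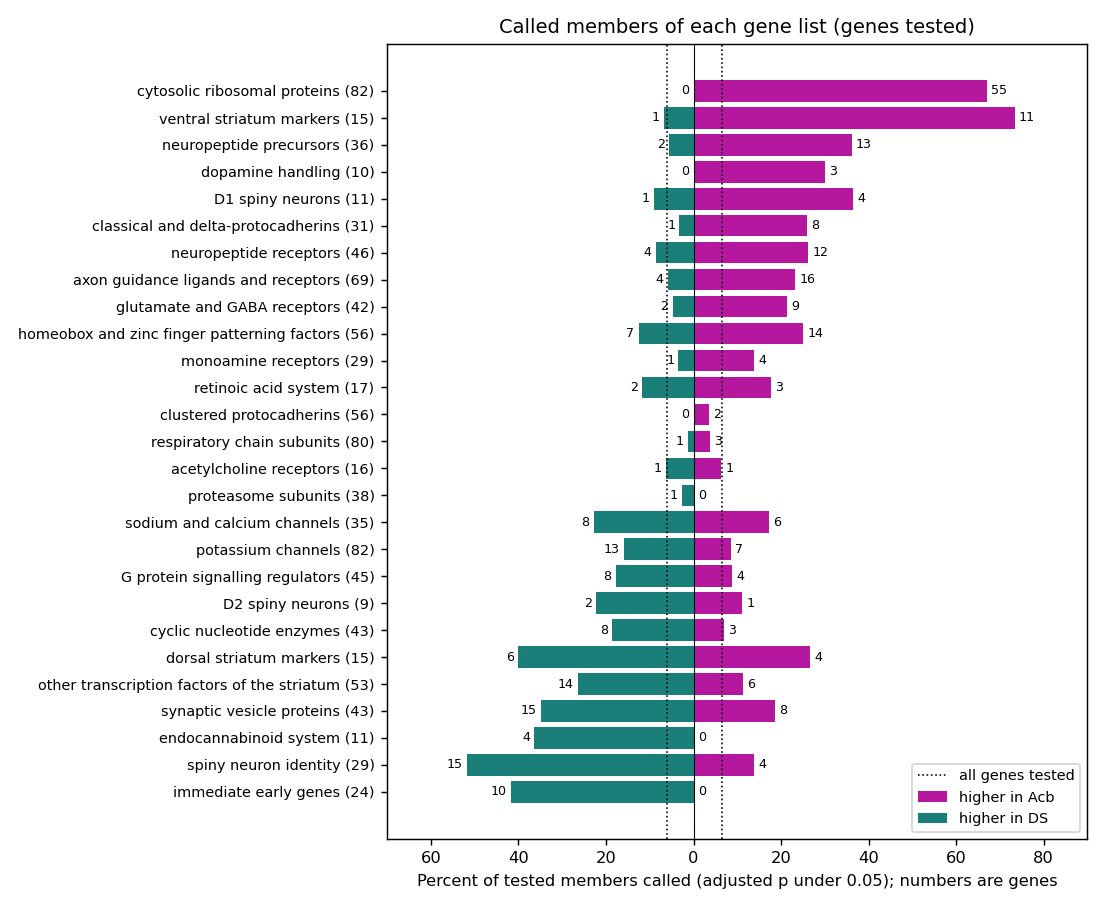
Percent of the tested members of each gene list called higher in the Acb (bars to the right) or in the DS (bars to the left), with the number of genes tested after each name and the number called beside each bar. The dotted lines are the shares among all genes tested, 6.54% and 6.15%.

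Transcription factors that pattern the forebrain differed in both directions. Of 124 homeobox and zinc finger patterning genes 50 had 0 reads in all 6 libraries and 56 were tested, of which 14 were higher in the Acb and 7 in the DS. Zic1, a factor of septal and ventral neurons, was at 34.7, 29.2 and 32.1 CPM in the Acb against 9.90, 4.64 and 6.78 CPM in the DS, and Lhx6, a factor of interneurons, at 40.4, 49.5 and 42.6 CPM against 18.4, 19.9 and 17.1 CPM. Pou3f4 (1.64) and Tshz2 (1.38) followed, and Tshz2 was the only cortical marker with an Acb call. The DS side held Satb1 (22.1, 20.3 and 18.6 against 62.1, 61.1 and 67.1 CPM), Tshz3 (-1.5) and Emx1, a cortical factor at 0.567, 0 and 0 CPM against 3.08, 6.04 and 3.04 CPM whose call was lost without DS replicate 2. The Acb count was 9 without Acb replicate 3, and the DS count was 4 without Acb replicate 2, DS replicate 1 or DS replicate 2. Of 53 other transcription factors 14 were higher in the DS and 6 in the Acb. Mef2c, a factor of cortical neurons and MSNs that limits synapse number, was at 171, 167 and 143 CPM in the Acb and 378, 380 and 412 CPM in the DS. Id2 was at 83.8, 70.4 and 83.0 CPM against 156, 159 and 150 CPM, and Zeb2 at 46.4, 42.3 and 27.2 CPM against 88.6, 80.2 and 97.4 CPM. In the Acb direction Tcf7l2, a Wnt effector of thalamic neurons and glia, was at 18.8, 25.5 and 21.6 CPM against 4.78, 4.70 and 3.90 CPM, and Sox11, a factor of young neurons, at 61.2, 69.4 and 64.3 CPM against 23.8, 23.0 and 45.0 CPM. Without Acb replicate 2 or DS replicate 1 the DS count was 9.

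In the retinoic acid system, which shapes striatal development through nuclear receptors, 3 of 17 genes were higher in the Acb and 2 in the DS. The retinol dehydrogenase gene Rdh10 was at 11.4, 11.8 and 9.92 CPM in the Acb against 3.68, 5.47 and 2.34 CPM in the DS. The receptor gene Rxrg went the other way, at 66.7, 69.2 and 57.0 CPM against 136, 120 and 128 CPM, and the DS count was 1 with DESeq2 and without DS replicate 2 or DS replicate 3, while the receptor gene Rarb did not pass the test (0.14, adjusted p 0.636, edgeR).

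Cues and receptors of axon guidance were higher in the Acb in 16 of 69 cases and higher in the DS in 4. Ntn1, the secreted guidance cue netrin, was at 31.5, 45.5 and 39.8 CPM in the Acb against 8.80, 5.34 and 8.89 CPM in the DS (log2 fold change 2.34, SE 0.24, adjusted p 6.58e-10, edgeR). The receptor genes Plxnc1 (61.1, 69.6 and 50.9 against 23.6, 24.9 and 31.3 CPM), Robo1 (1.16) and Nrp2 (1.35) were also higher in the Acb. Sema7a, a membrane-anchored semaphorin that binds plexin C1, the product of Plxnc1, was higher in the DS at 22.3, 30.6 and 14.8 CPM against 86.9, 89.4 and 102 CPM. Cadherins and protocadherins outside the clusters were higher in the Acb in 8 of 31 cases and higher in the DS in 1, Cdh9, whose call was lost with the filterByExpr filter, with DESeq2 and without Acb replicate 2, DS replicate 1, DS replicate 2 or DS replicate 3. Pcdh10 was at 205, 227 and 177 CPM in the Acb against 108, 114 and 98.4 CPM in the DS, and Pcdh19 at 39.6, 40.3 and 40.2 CPM against 13.6, 18.4 and 18.2 CPM. The clustered protocadherins, whose near-identical members share reads, had 2 of 56 genes called, below the share of all genes, with 0 without Acb replicate 1 or Acb replicate 2 and 1 without DS replicate 1.

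Immediate early genes, which neurons switch on with activity, were higher in the DS in 10 of 24 cases and higher in the Acb in 0. Nr4a2 (above) and Bdnf, a trophic factor delivered to the striatum from cortex, were members with the largest changes, Bdnf at 3.56, 1.36 and 2.14 CPM in the Acb against 15, 19.7 and 21.1 CPM in the DS. Ier5 was at 34.1, 38.0 and 34.5 CPM against 81.2, 102 and 102 CPM, and the phosphatase gene Dusp6 at 42.5, 26 and 28.1 CPM against 75, 76.7 and 79.3 CPM. Egr1, a zinc finger factor, was at 334, 246 and 287 CPM against 481, 453 and 767 CPM. The fast-induced genes Fos (22.9, 17.6 and 34.7 against 20.4, 27.5 and 19.4 CPM), Junb (-0.16) and Npas4 (-0.61, adjusted p 0.0810, edgeR) did not pass the test, with Fos at overlapping levels. Several members, among them Nr4a2, Bdnf and Nptx2, are known as abundant in cortical neurons, whose markers moved in the same direction, and their part was not tested.

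Cytosolic ribosomal proteins formed a broad and shallow difference. Of 82 tested 55 were higher in the Acb and 0 in the DS, with a median change of 0.44, and their sum was 26110 to 32970 CPM in the Acb and 18700 to 22740 CPM in the DS. Rpl37 was at 237, 247 and 275 CPM in the Acb and 161, 152 and 134 CPM in the DS (log2 fold change 0.76, SE 0.12, adjusted p 7.22e-06, edgeR), and Rplp1 at 638, 825 and 727 CPM against 478, 503 and 430 CPM. Rps6, the gene that carries the mutations in the knockin line, was at 369, 416 and 457 CPM against 318, 310 and 249 CPM (log2 fold change 0.50, SE 0.12, adjusted p 0.00184, edgeR). For Rpl37 and Rps6 the third library was the highest of the Acb and the lowest of the DS, and the count was 24 without Acb replicate 3 and 26 without DS replicate 3, with 41 when the trend on transcript length was removed. Processed copies of these genes can take reads, so that single members are uncertain. Other housekeeping assemblies did not share this, with 3 of 80 respiratory chain subunit genes higher in the Acb and 1 higher in the DS (median 0.11), and with 1 of 38 proteasome subunit genes higher in the DS, shares below those of all genes. With a library left out the respiratory counts were 0 to 5 in the Acb (5 without Acb replicate 1, 1 without Acb replicate 3, and 0 without Acb replicate 2 or DS replicate 3), and the proteasome count in the DS was 0 to 2.

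Interneuron markers gave mixed results. Of 7 cholinergic genes 3 were higher in the Acb, namely the choline transporter gene Slc5a7 (38.0, 35.9 and 29.0 against 14.1, 15.6 and 15.3 CPM), the factor gene Lhx8 (13, 14.3 and 14.5 against 5.32, 6.23 and 3.20 CPM) and Ecel1 (34.1, 45.0 and 45.0 against 13.1, 12.5 and 16.0 CPM), whereas the enzyme gene Chat overlapped at 12.5, 16.6 and 14.0 CPM against 18.5, 12.2 and 5.54 CPM. Calb2, the marker of calretinin cells, was at 30.8, 39.2 and 50.4 CPM in the Acb against 7.01, 9.35 and 4.91 CPM in the DS, and Pvalb, the marker of fast-spiking cells, was at 14.2, 16.4 and 12.8 CPM against 38.4, 35.3 and 34.9 CPM. Of 10 markers of parvalbumin, somatostatin and calretinin interneurons 3 were higher in the Acb (Calb2, Lhx6 and Sst), 1, Pvalb, was higher in the DS and 6 were not called, and the Sst libraries overlapped, with its call lost in 4 alternatives (above).

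Glial genes were higher in the Acb wherever they were called. Astrocyte genes gave 11 of 15, microglial genes 10 of 13 (6 without Acb replicate 2), oligodendrocyte genes 7 of 16 and oligodendrocyte precursor genes 2 of 8 (1 without Acb replicate 1 or DS replicate 1), and 0 members of these lists were higher in the DS. The astrocyte GABA transporter gene Slc6a11 was at 128, 136 and 156 CPM in the Acb against 34.5, 39.8 and 34.8 CPM in the DS, and the glutamate transporter gene Slc1a3 at 348, 367 and 314 CPM against 146, 158 and 158 CPM. Agt, the angiotensinogen of astrocytes, was at 17.5, 17.6 and 20.1 CPM against 3.18, 1.33 and 1.01 CPM. The microglial genes Ctss (33.5, 42.4 and 35.6 against 15.3, 12.5 and 14.3 CPM) and Csf1r (37.5, 37.2 and 42.4 against 13, 18.7 and 23.3 CPM) did not overlap between regions. Of the myelin genes Mag was at 134, 133 and 135 CPM against 70.0, 67.8 and 92.6 CPM, with no overlap. Smaller lists gave 4 of 10 subventricular neuroblast genes, 4 of 7 thalamic and habenular genes, 3 of 11 choroid plexus genes and 1 of 10 ependymal genes higher in the Acb, with neuroblast counts of 2 without Acb replicate 3 or DS replicate 1, thalamic counts of 2 without Acb replicate 3 or DS replicate 2, and ependymal counts of 0 without Acb replicate 3 and 3 by DESeq2. Claustrum markers split, with Nr4a2, Ntng2 and Gng2 higher in the DS and Nnat higher in the Acb. Xist, the RNA of the inactive X chromosome, lay at 1.96, 4.70 and 0 CPM in the Acb and 1.74, 5.66 and 2.34 CPM in the DS, with no call. Of 4 Y-linked genes Ddx3y was called (0.69, adjusted p 0.0132 in edgeR, lost without Acb replicate 3, without DS replicate 2 and in the fit of all 12 lysates). Whether the sex make-up of the pools bears on the other differences was not tested.

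The same regions were also sampled in rpS6P-/- littermates, which share no library with the wild-type comparison. There 1693 of 15575 genes (10.9%) were called, 754 higher in the Acb (4.84%) and 939 higher in the DS (6.03%). Of the 1018 genes higher in the Acb of wild-type mice 1017 were tested in the knockins, 990 (97.3%) had the same direction and 530 (52.1%) were called in it. Of the 957 genes higher in the DS 932 (97.4%) had the same direction and 603 (63.0%) were called, and 0 genes of either set were called in the opposite direction. The median change of the Acb genes was 0.57 in the knockins against 0.81 in the wild-type mice, and that of the DS genes -0.59 against -0.70, the genes having been chosen on the wild-type values. Dlk1 (5.16), Pdyn (2.04), Htr2c (1.18), Cnr1 (-1.87), Rgs4 (-1.33) and Neurod6 (-4.08) were called in the knockins as well. Ppp1r1b (-0.17, adjusted p 0.264), Drd2 (-0.33, adjusted p 0.179) and Ttr (4.39, adjusted p 0.234) were not called there by edgeR, and a difference between genotypes was not shown for them, since a test of region by genotype called 1 of 16364 genes (0.00611%), which was Kif3a. Ribosomal protein genes were higher in the Acb in 63 cases and immediate early genes higher in the DS in 8. Summed cortical markers were again at 506 to 609 CPM in the Acb against 1526 to 1656 CPM in the DS. Other list counts moved. Higher in the Acb were 2 septal and pallidal markers (6 in wild-type), 5 microglial (10) and 5 ependymal (1). Thalamic and habenular markers had 1 higher in the Acb and 2 in the DS, against 4 and 0. Grin2d, at 3.21 in wild-type mice, was not called in the knockins (0.31, adjusted p 0.878, edgeR).

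**Figure D5:**
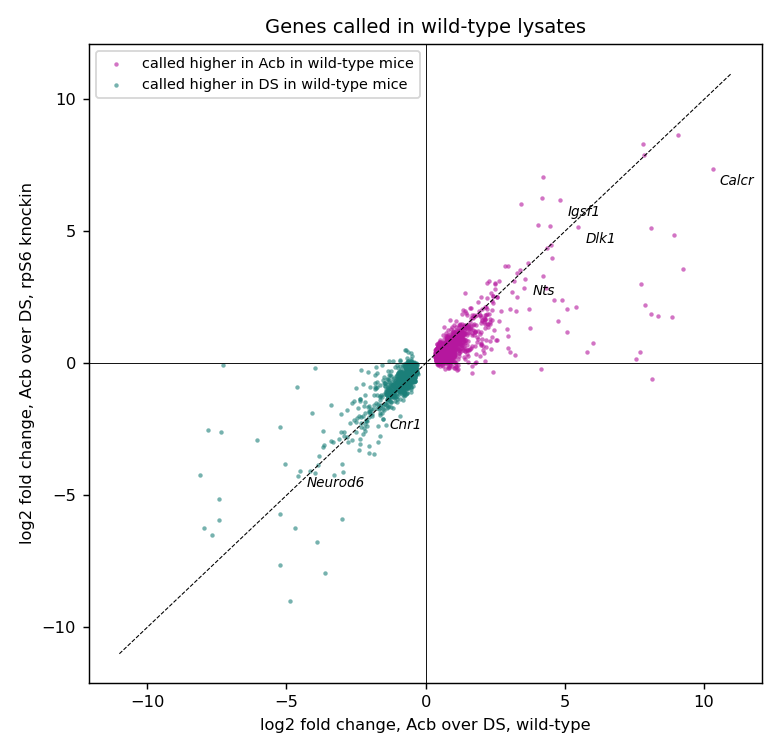
Log2 fold change of Acb over DS in wild-type whole lysates (horizontal axis) and in whole lysates of rpS6P-/- mice (vertical axis) for the genes called in wild-type mice, with the dashed line marking equal values. The 990 of 1017 Acb genes and 932 of 957 DS genes with the same direction lie at the upper right and the lower left.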

How the data were processed

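RNA of whole lysates was sequenced after poly-A selection with a stranded kit. The authors aligned reads to mm10 with TopHat 2.0.13 and Bowtie 2.2.3, dropped alignments that had over 3 mismatches, summed them by gene in HTSeq 0.6.1p1 (opposite strand), and deposited raw counts for 24079 genes. Here a gene needed 15 reads in total over the libraries of a comparison, as in the study, and regions were compared with edgeR 4.0.16 in R 4.3.3 (TMM factors, quasi-likelihood F test with default settings, Benjamini-Hochberg adjusted p under 0.05), which was tested on simulated data. CPM use the TMM factors, computed separately for each genotype. DESeq2 1.42.0 and the settings of the closing section served as alternatives. Lists and plots were made in Python 3.11.15 (pandas 2.3.3, matplotlib 3.10.9). Gene positions and promoters came from RefSeq (GRCm38.p6) and transcript lengths from GENCODE M21 by Entrez identifier, for 14789 of 15557 genes tested.

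Depth was 9280589 to 20259509 reads per library, and the median gene tested had 234 reads per library. Genes were named as the 12 largest changes in each direction (at least 50 reads on average, no overlap), up to 4 called members per direction of each list with the lowest adjusted p, members that define a list, and 8 genes always given, of which a few are not reported here. The comparison, members and lists were chosen with earlier results of these data known. Heavy polysomal libraries were not used. Replicates with the same number were not treated as pairs.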

Additional observations from a re-analysis of the deposited data

Results flagged for a closer look

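Kif3a, a motor subunit of kinesin 2, was picked out because its regional difference differed between genotypes in a test of the difference itself (0.92 on the log2 scale, SE 0.16, adjusted p 0.00848, edgeR's interaction of region and genotype over 12 lysates). In wild-type mice it stood at 416, 589 and 675 CPM in the Acb and 542, 577 and 705 CPM in the DS (log2 fold change -0.12, adjusted p 0.658 in edgeR), with overlapping libraries. In rpS6P-/- mice it stood at 1029, 784 and 752 CPM in the Acb and 500, 522 and 466 CPM in the DS (log2 fold change 0.79, adjusted p 1.04e-07 in edgeR), with all Acb libraries above all DS libraries. The call was lost with the filterByExpr filter (0.152), with DESeq2 (0.530), without Acb wild-type replicate 1 (0.0750), without Acb knockin replicate 1 (0.120), without DS wild-type replicate 3 (0.0596) and without DS knockin replicate 3 (0.0503), while the next lowest adjusted p among the 16364 genes was 0.273.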

How the results depend on the processing

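Calls in wild-type lysates numbered 1922 to 2144 over the alternatives that kept all libraries, sharing 94.3 to 99.7% of the 1975 reported calls in the same direction, and 1327 to 1728 with a library left out, sharing 64.9 to 79.3%. For genes higher in the Acb leaving out a library gave 664 to 883, and for those higher in the DS 663 to 863. In knockin lysates leaving out a library gave 1049 to 1554 calls, 483 to 726 higher in the Acb and 566 to 890 higher in the DS. The region by genotype count was 0 with the filterByExpr filter, 3 with no filter beyond 1 read, 0 with DESeq2, and 0 to 4 with a library left out. Same-numbered Acb and DS replicates did not deviate together (correlations of residuals -0.0320 to 0.0227 in wild-type and -0.00755 to 0.00880 in knockin lysates). The sources do not state whether same-numbered libraries came from the same mice. With so few replicates these correlations cannot decide it. A replicate block gave 2086 calls in wild-type lysates, 1815 in knockin lysates and 5 for region by genotype, and Bc1 was then called (adjusted p 2.38e-05, edgeR). Of 196 named genes 47 lost their call in at least 1 of the fits with a library left out and 13 in at least 1 of the others, and the direction was kept by each. Calls higher in the Acb made up 51.5% of all calls, and 48.9% with the trend on transcript length removed. Of 1288 counts of list members 1177 stayed within 1.5 times the reported count, among them counts of 0 that stayed at 0. With all libraries kept it was 712 of 736, so that most of the 111 counts beyond this range came with a library left out. Depth limits genes of few reads, where a few more or fewer reads decide a call.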

Other observations

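Imprinted genes, expressed from a single parental allele and known for growth and for hypothalamic and social functions, were listed after Dlk1, Peg10, Calcr and Nnat had been seen, so that their count is a description. Of 41 tested 18 were higher in the Acb and 2 in the DS, with a median change of 0.67, and their sum was 6751 to 7609 CPM in the Acb and 5037 to 5558 CPM in the DS. Besides Peg10 and Dlk1, Nnat, a small membrane protein, was at 384, 445 and 476 CPM in the Acb against 122, 111 and 126 CPM in the DS, and Nap1l5 at 496, 522 and 672 CPM against 335, 312 and 271 CPM. Ndn (0.74), Grb10 (0.92) and Zdbf2 (0.94) were called in the same direction, and Rtl1 had 97, 73 and 40 reads in the Acb and 0 in each DS library. Herc3 (-0.53) and Peg13 (-0.33) were higher in the DS, and without Acb replicate 3 neither was called, while Peg13 was also lost without Acb replicate 2 or any 1 of the DS replicates. In knockin lysates 16 were higher in the Acb and 2 in the DS.

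Genes on the X chromosome were also noticed after the values were seen. They made up 81 of 1018 genes called higher in the Acb (7.96%) and 19 of 954 genes with a position called higher in the DS (1.99%), against 548 of 15528 tested (3.53%). Of the genes with a log2 change of at least 2 they were 16 of 114 (14.0%) in the Acb direction and 1 of 87 (1.15%) in the DS direction, and 6 of the 12 largest changes towards the Acb were X-linked (Igsf1, Dgkk, Irs4, Gpc3, Gabrq and Arhgap36).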
